A study of Mus musculus with 8 samples.

Results

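The deposited table of 5457 genes held 41 genes whose symbols place them among receptor tyrosine kinase ligands, receptors, adaptors or feedback inhibitors. The rule that picks them reads symbols and no measured value, though it was set with earlier results of these data known: FGF, PDGF, VEGF and IGF family names, ErbB receptors, Hbegf, Met, the IGF-binding proteins, the Irs, Grb and Gab adaptors, and the Sprouty, Spred and dual-specificity phosphatase (Dusp) families. The matches were Fgf11, Fgf13, Fgf21, Fgfr1, Fgfr3, Pdgfa, Pdgfb, Pdgfc, Vegfa, Vegfb, Vegfc, Hbegf, Erbb2, Erbb3, Met, Igf1, Igf1r, Igfbp2, Igfbp7, Irs1, Irs2, Gab1, Gab2, Spry1, Spry2, Spry4, Spred1, Spred2, Spred3, Dusp2 to Dusp9, Dusp13, Dusp27, Dusp28 and Fgfr1op. The last was matched by its name only, since Fgfr1op encodes a centrosomal protein. All 41 could be tested, and genes of these families outside the table were not analysed here.

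The 8 RNA libraries, in 4 groups of 2, came from cells of the hind limb skeletal muscle of adult C57BL/6 mice that were sorted for the red reporter tdTomato and cultured on Matrigel. The genotypes were Pax7-CreERT2/+;R26-tdTO+ and Tw2-CreERT2/+;R26-tdTO+. In these mice tamoxifen activates a Cre recombinase driven by Pax7, the transcription factor gene that marks muscle satellite (stem) cells, or by Twist2 (Tw2), another transcription factor gene, and Cre switches on the reporter. All mice received 3 tamoxifen treatments on alternate days, 10 days ahead of harvest. Pax7_GM and Tw2_GM are the libraries titled GM, for growth medium (Ham's F10 with 20% fetal bovine serum). Pax7_48 and Tw2_48 are those titled 48, which the Tw2 titles alone give in hours. The protocol's differentiation medium held 2% horse serum and bFGF, itself an FGF receptor ligand. The labels do not say in which medium the 48 cultures were kept, or whether the 2 libraries of a group came from separate mice or cultures. The p-values below therefore measure only the spread between these libraries.

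Receptor tyrosine kinases are cell-surface receptors that bind a growth factor, pair up and phosphorylate themselves and docking proteins such as the Irs and Gab adaptors. The signal then runs through Ras, Raf, MEK and ERK, and through PI3 kinase and Akt. Sprouty and Spred proteins restrain the Ras-Raf step, and dual-specificity phosphatases of the MAP kinase phosphatase (MKP) class remove the activating phosphates from ERK and its relatives. Several of these inhibitors are themselves transcribed in response to ERK. In muscle, HGF acting on Met and FGF acting on FGF receptors are known to wake satellite cells and keep myoblasts dividing, while IGF signalling also serves differentiation and growth.

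The authors deposited the mean CPM (reads scaled to the size of the library) of each group, and each mean was taken apart into the whole reads of its 2 libraries, called deeper and shallower here. Where a pair of CPM values is given for a group, the deeper library stands first. The library sizes implied by these means were 5.18 to 13.7 M reads. They were not whole numbers (0.126 to 0.444 from the nearest), so they need not be the read totals. At these sizes 3 reads, the limit that a count of 0 allows, came to 0.218 to 0.579 CPM (counting error only). The 2 Pax7_GM libraries differed more from each other (median absolute log2 ratio over genes 0.33) than the pairs of the other groups (0.11 to 0.12). Pax7 itself stood at 113 and 109 CPM in Tw2_GM, 117 and 112 in Pax7_GM, 12.96 and 12.6 in Tw2_48 and 9.58 and 9.95 in Pax7_48. The lineages did not pass the test for Pax7 in GM (-0.05 ± 0.12), Pax7 was higher in Tw2 at 48 (0.35 ± 0.12 (SE), adjusted p = 0.0303), and it was lower at 48 than in GM in both lineages. Of the 9 satellite cell markers tested, the summed level was 4413 to 5386 CPM in the GM libraries and 10871 to 13534 CPM in the 48 libraries, while 5 of the 9 were called higher and 4 lower at 48 in each lineage. The 5 fibro-adipogenic progenitor markers tested (12 listed) summed to 938 to 1035 CPM in GM, 211 and 248 CPM in Tw2_48, and in Pax7_48 to 437 and 408 CPM. The similar sums in GM hide differences each way. Of these 5, 2 were higher and 2 lower in Tw2 than in Pax7 in GM (median log2 difference -1.81), and 1 was higher and 2 lower at 48 (-0.81). The 8 pericyte and smooth muscle markers tested (11 listed) summed to 1773 to 2460 CPM in GM. At 48 their sum was 12343 and 11937 CPM in the Tw2 pair and 9996 and 10539 CPM in the Pax7 pair. Of these 8, 4 were higher and 2 lower in Tw2 than in Pax7 at 48, and Rgs5 had 0 reads in Pax7_48. Des stands on this list and on that of satellite cells. Any part of these marker shifts in the results below was not tested. Itgam, the 1 immune marker tested of 10 listed, had 0 reads in Tw2_GM and at most 22.8 CPM in any library. The endothelial (9 listed) and glial (6 listed) markers and Twist2 were not analysed here.

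Most of the 41 genes differed strongly between the cultures, and did so in the same direction in both lineages. Each difference was tested with limma on log2(CPM + 1), called at a Benjamini-Hochberg adjusted p under 0.05 over 5451 genes, and is given as a log2 fold change ± SE with 2 libraries per group. Culture changes are 48 against GM and lineage differences are Tw2 against Pax7, so a negative value means lower at 48 or lower in Tw2. In the Pax7 lineage 17 members were higher and 23 lower at 48 than in GM, against 38.7% of all genes called higher and 40.5% called lower. In the Tw2 lineage 16 were higher and 23 lower, against 35.3% and 48.9%. The members' median change was -0.76 (Pax7) and -0.81 (Tw2), beside 0.01 and -0.50 over all genes. Called higher in both lineages were 16 members (33.2% of all genes were), called lower in both were 23 (39.4%), and none was called in opposite directions. The 2 members outside this pattern were Pdgfb, called in neither lineage, and Fgfr1op, called only in Pax7. Every gene of the table had been selected by the authors' fold change of at least 2 from Tw2_GM in at least 1 other group, so these shares are shares of genes chosen for a difference. Each tested gene had also reached 10 CPM in at least 4 of the 8 libraries. Igf1, Fgfr3 and Gab1 did so only at 48, and Vegfc, Irs2, Dusp5 and Dusp9 only in GM. Among the GM libraries, Fgf21, Dusp8 and Dusp28 reached 10 CPM only in the deeper Pax7_GM library (10.4, 11.2 and 12.2 CPM). They too passed the filter through the 48 libraries. The direction of the culture change of all these members is thus bound to that filter, and its test is no separate support. In bulk RNA, fewer cells of a type and less RNA per cell cannot be told apart.

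**Figure D1:**
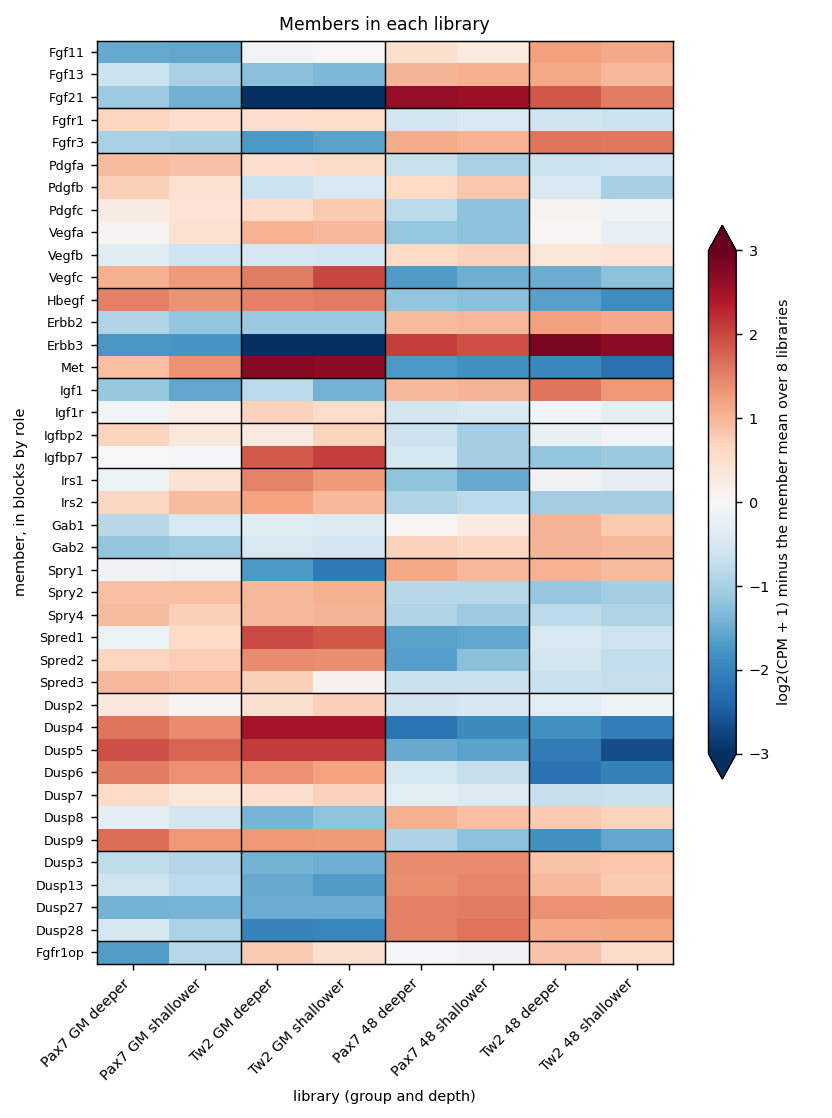
Level of each of the 41 genes (rows, in blocks by role) in each of the 8 libraries (columns, 2 per group), as log2(CPM + 1) minus the gene's own mean over the 8 libraries; red is above that mean, blue below, and arrows on the colour bar mark values beyond 3. The GM and 48 columns show opposite colours for most genes, with all 4 atypical Dusp genes higher at 48 and 5 of the 6 Sprouty and Spred genes lower.

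The lineages differed in fewer members. In GM, 13 members were higher and 12 lower in Tw2 than in Pax7, where 48.7% and 26.0% of all genes were called higher and lower. At 48, 12 were higher and 8 lower, against 43.3% and 22.1%. The lineage difference in GM was itself a ground of the authors' selection from Tw2_GM, and that at 48 was not. The GM calls are therefore not independent of that selection, and Fgfr1op was in the table through its GM difference alone. The members' median lineage difference was 0.12 in GM and 0.02 at 48, beside 0.34 and 0.27 over all genes. Higher in Tw2 in both cultures were 7 members (37.0% of all genes were): Fgf11, Vegfa, Irs1, Gab2, Spred1, Spred2 and Fgfr1op. Lower in both were 4 (14.7%): Fgf21, Pdgfb, Dusp3 and Dusp13. Fgfr3 and Erbb3 were called lower in Tw2 in GM and higher at 48, and 9 members had no lineage call in either culture. The shares of all genes with these 2 patterns are not given here. The difference between the 2 culture changes, Tw2 minus Pax7, was called for 11 members, 5 of them positive and 6 negative, against 9.72% and 9.01% of all genes.

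The lineage counts moved with the scaling. Dividing the CPM values by median-of-ratios size factors took the median lineage difference of all genes from 0.34 to -0.50 in GM and from 0.27 to -0.36 at 48, and quantile normalization took it to -0.14 and -0.02. With size factors 5 members were higher and 28 lower in GM (25.6% and 53.9% of all genes), and 2 and 26 at 48 (17.4% and 48.3%). With quantile normalization the counts were 8 and 22 in GM (36.2% and 40.5%) and 6 and 16 at 48 (29.5% and 31.5%). Members without a lineage call moved too. With size factors Fgfr1, Vegfb, Erbb2, Irs2, Spry2 and Spry4 were called lower in Tw2 in GM. The lineage difference of all genes also followed the transcripts' GC content, with a median of 1.83 in the lowest quintile and -0.37 in the highest in GM (1.17 and -0.27 at 48). Of the 41 members, 18 lay in the highest quintile of GC content and 2 in the lowest. Called in the same direction under both scalings and after the trend with GC content and length was removed were 10 members in GM (Fgf11, Met, Igfbp7, Spred1 and Fgfr1op higher, and Fgf13, Fgf21, Erbb3, Spry1 and Dusp3 lower). At 48 these were Vegfa and Irs1 (higher) and Pdgfb, Dusp6 and Dusp3 (lower). The direction held for these members, but the size moved. After the trend removal the GM values were nearer 0 for Spred1 (0.33), Fgf21 (-0.45), Spry1 (-0.81) and Met (0.84), and further from 0 for Fgf11 (2.31) and Igfbp7 (3.25). The culture calls were less affected: 39 of 40 in Pax7 and 35 of 39 in Tw2 were called the same way under all 3 settings. The share of all genes called the same way under these settings is not given here, so these counts are no result about the members. The fit shares 1 spread over all libraries, so SEs of contrasts with the more variable Pax7_GM pair can be too small. With library weights by group, adjusted p in GM was 0.0813 for Fgf13, 0.188 for Pdgfa, 0.13 for Vegfc and 0.0555 for Igf1r. It was 0.0576 and 0.0551 for the differences of changes of Fgf11 and Fgf21. At 48 Met (0.0331) and Igfbp7 (0.029), among others, then passed.

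**Figure D2:**
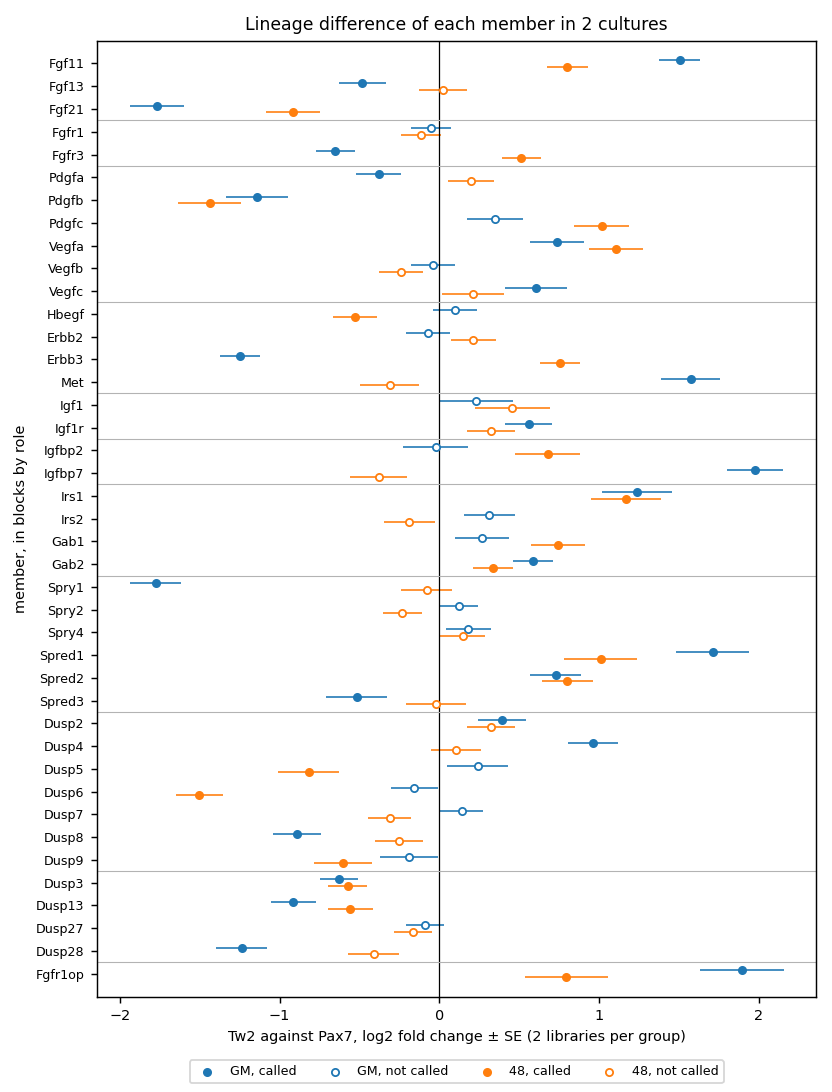
Tw2 against Pax7 log2 fold change of each gene (rows, in blocks by role) in GM (blue) and at 48 (orange), with bars of 1 SE and 2 libraries per group; filled points passed the test and open points did not. Spry1 and Erbb3 lay at -1.78 and -1.25 in GM and at -0.08 and 0.76 at 48, whereas Irs1 lay at 1.24 and 1.17.

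The 3 FGF family members were all higher at 48 in both lineages (33.2% of all genes were). Fgf11 (chr11:69796068-69801857, GRCm38, minus strand) and Fgf13 encode intracellular FGFs, which are not secreted, bind voltage-gated sodium channels and are not classical receptor ligands. Fgf11 stood at 49.5 and 52.8 CPM in Tw2_GM, 17.7 and 16.98 in Pax7_GM, 124 and 117 in Tw2_48 and 72.8 and 64.7 in Pax7_48. Both Tw2 libraries lay above both Pax7 libraries in each culture, and both 48 libraries above the GM libraries in each lineage. The Tw2 against Pax7 difference of Fgf11 was 1.51 ± 0.13 (SE), adjusted p = 5.79e-05 in GM and 0.80 ± 0.13 (SE), adjusted p = 0.00166 at 48, where it was no longer called with size factors (0.15, adjusted p = 0.344). Its culture change was smaller in Tw2 (1.22 ± 0.13) than in Pax7 (1.92 ± 0.13), and the difference of -0.70 ± 0.18 had an adjusted p of 0.0309. Fgf13 had 16.5 and 15.4 CPM in Tw2_GM, 25.3 and 20.3 in Pax7_GM, 91.1 and 80.1 in Tw2_48 and 82.4 and 86.02 in Pax7_48. Its libraries did not overlap between the lineages in GM (-0.48 ± 0.15 (SE), adjusted p = 0.0182) and overlapped at 48. The GM call was lost without any 1 of 2 of the 8 libraries (adjusted p = 0.0984 without the shallower Tw2_GM library).

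Fgf21 (chr7:45613886-45615490, minus strand) encodes a secreted, hormone-like FGF that signals through FGF receptors with the co-receptor beta-Klotho and is known to be released by stressed or energy-depleted muscle. Its level was 1.97 and 1.95 CPM in Tw2_GM, 10.4 and 7.91 in Pax7_GM, 86.7 and 68.96 in Tw2_48 and 150.2 and 144 in Pax7_48. The Tw2 libraries were the lower ones in both cultures, without overlap. The mean CPM at 48 was 39.7 times that in GM in Tw2 (4.73 ± 0.17 (SE), adjusted p = 5.44e-08) and 16.02 times in Pax7 (3.87 ± 0.17 (SE), adjusted p = 3.29e-07). Fgf21 passed the filter of 10 CPM in 4 libraries through the 48 libraries, so this rise was partly fixed in advance. Between the lineages Fgf21 differed by -1.77 ± 0.17 (SE), adjusted p = 8.82e-05 in GM and by -0.92 ± 0.17 (SE), adjusted p = 0.00262 at 48. After the trend with GC content and length was removed the value was -0.45 (adjusted p = 0.0303) in GM and -0.03 (adjusted p = 0.881) at 48. The 250 bases before the RefSeq start of Fgf21, the one secreted FGF among the members, were read from the reference (GRCm38.p6, chr7:45615491-45615740, minus strand, read in the direction of transcription). Capitals mark an amino acid response element (searched as TGATGNAA on both strands, here on the opposite strand, at -139 to -132 from the start) and 2 E-boxes (CANNTG, at -88 to -83 and -50 to -45).
Fgf21: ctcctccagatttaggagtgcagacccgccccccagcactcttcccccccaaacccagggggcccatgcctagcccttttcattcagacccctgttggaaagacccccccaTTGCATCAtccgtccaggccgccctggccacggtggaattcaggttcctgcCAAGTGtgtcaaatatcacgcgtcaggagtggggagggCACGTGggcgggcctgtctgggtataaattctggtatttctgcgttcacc
The first motif is bound by ATF4 and the second by basic helix-loop-helix factors, the family that holds both MyoD and Twist2. The response element occurred in 3.45% and an E-box in 66.2% of all 32851 promoter windows of this length. A match is a description of the sequence and no measure of binding.

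The 2 FGF receptor genes went in opposite directions. Fgfr1, the main FGF receptor gene of myoblasts, stood at 198 and 201 CPM in Tw2_GM, 216 and 199 in Pax7_GM, 90.4 and 86.7 in Tw2_48 and 91.5 and 100.3 in Pax7_48. All 4 of the 48 libraries lay below the 4 GM libraries, with changes of -1.11 ± 0.13 (SE), adjusted p = 5.78e-05 in Pax7 and -1.17 ± 0.13 (SE), adjusted p = 3.43e-05 in Tw2. The lineages did not pass the test in either culture, with Fgfr1 differences of -0.05 ± 0.13 in GM and -0.11 ± 0.13 at 48. The GM difference of Fgfr1 was called under the alternatives, in both directions. It was -0.92 (adjusted p = 0.000319) with size factors, -0.58 (adjusted p = 0.00304) with quantile normalization and 0.57 (adjusted p = 0.00121) after the trend removal. Fgfr3 had 2.38 and 2.66 CPM in Tw2_GM, 4.61 and 4.44 in Pax7_GM, 32.7 and 32.03 in Tw2_48 and 23.02 and 21.7 in Pax7_48. Tw2 was the lower lineage in GM (-0.65 ± 0.12 (SE), adjusted p = 0.00148) and the higher at 48 (0.51 ± 0.12 (SE), adjusted p = 0.00728), without overlap in either, although the 48 value was -0.12 with size factors and had an adjusted p of 0.0561 without the shallower Pax7_48 library. Its culture change of 3.25 ± 0.12 in Tw2 exceeded that of 2.08 ± 0.12 in Pax7 by 1.16 ± 0.17 (SE), adjusted p = 0.00339. The GM value of Fgfr3 was 0.09 (adjusted p = 0.537) after the trend removal and -0.24 (adjusted p = 0.348) with quantile normalization. With quantile normalization the difference of changes was 0.36 (adjusted p = 0.419).

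Of the 6 PDGF and VEGF ligand genes, 4 were lower at 48 in both lineages (Pdgfa, Pdgfc, Vegfa and Vegfc), beside 39.4% of all genes. Vegfb was higher in both, and Pdgfb passed the test in neither. PDGFs act on fibroblast and perivascular cells and VEGFs on blood and lymphatic vessel endothelium. Pdgfb (chr15:79995874-80014977, minus strand) was at 10.6 and 12.04 CPM in Tw2_GM, 28.7 and 23.7 in Pax7_GM, 11.9 and 8.09 in Tw2_48 and 26.4 and 30.5 in Pax7_48. Every Tw2 library lay below every Pax7 library, whichever the culture. Pdgfb was in the table through the Pax7 groups alone. Its deposited log2 value against Tw2_GM was 1.14 in Pax7_GM, 1.26 in Pax7_48 and -0.16 in Tw2_48, so its lineage difference was partly fixed in advance. The lineage difference of Pdgfb was -1.14 ± 0.20 (SE), adjusted p = 0.000947 in GM and -1.44 ± 0.20 (SE), adjusted p = 0.000946 at 48, and the culture differences were 0.12 ± 0.20 in Pax7 and -0.18 ± 0.20 in Tw2. The GM value was -0.25 (adjusted p = 0.233) after the trend with GC content and length was removed.

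Vegfa, which encodes the main mitogen of blood vessel endothelium, stood at 266 and 251 CPM in Tw2_GM, 135 and 176 in Pax7_GM, 134 and 109 in Tw2_48 and 56.9 and 54.3 in Pax7_48. It was higher in Tw2 in both cultures, by 0.74 ± 0.17 (SE), adjusted p = 0.00438 in GM, where the value turned to -0.13 with size factors, and by 1.11 ± 0.17 (SE), adjusted p = 0.00147 at 48. Pdgfc had 46.002 and 52.7 CPM in Tw2_GM, 36.4 and 40.5 in Pax7_GM, 32.7 and 28.2 in Tw2_48 and 16.9 and 12.4 in Pax7_48. Its libraries stood apart between lineages at 48 (1.02 ± 0.17 (SE), adjusted p = 0.00208; 0.39, adjusted p = 0.0676 with size factors) while the GM difference did not pass the test. The change of Pdgfc between cultures in Tw2 had an adjusted p of 0.0527 without the shallower Tw2_48 library. Vegfc, the lymphatic vessel growth factor gene, fell from 51.9 and 72.2 to 5.46 and 6.704 CPM in Tw2 (-3.14 ± 0.19) and from 37.1 and 42.8 to 4.604 and 5.63 CPM in Pax7 (-2.75 ± 0.19). In GM it was higher in Tw2 (0.61 ± 0.19 (SE), adjusted p = 0.0204), which turned to -0.25 with size factors and had an adjusted p of 0.159 without the shallower Tw2_GM library. Pdgfa was lower in Tw2 in GM (-0.38 ± 0.14 (SE), adjusted p = 0.0392), but 0.53 after the trend removal, and the call was lost without any 1 of 5 of the 8 libraries (adjusted p = 0.171 without the deeper Tw2_GM library). Vegfb was within 22.6 to 27.4 CPM in the 4 GM libraries and 46.3 to 57.6 CPM in the 48 libraries, and had no lineage call.

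Among the members, Erbb3 had the largest rise between cultures in Tw2 and Met the largest fall on the log2(CPM + 1) scale, while by the ratio of mean CPM Dusp5 fell 31.5-fold and Met 30.2-fold. Erbb3 (chr10:128567523-128589652, minus strand) encodes a neuregulin receptor with little kinase activity that signals in a pair with Erbb2. It stood at 9.45 and 8.94 CPM in Tw2_GM, 23.4 and 22.96 in Pax7_GM, 579.7 and 541 in Tw2_48 and 348 and 314 in Pax7_48. The 2 Tw2_GM libraries were the lowest of the 8 and the 2 Tw2_48 libraries the highest. Mean CPM at 48 was 60.9 times that in GM in Tw2 (5.78 ± 0.13 (SE), adjusted p = 1.45e-08) and 14.3 times in Pax7 (3.78 ± 0.13 (SE), adjusted p = 1.99e-07). The lineage difference of Erbb3 was -1.25 ± 0.13 (SE), adjusted p = 0.000108 in GM and 0.76 ± 0.13 (SE), adjusted p = 0.00187 at 48, the latter 0.10 (adjusted p = 0.509) with size factors. Its culture change was larger in Tw2 by 2.01 ± 0.18 (SE), adjusted p = 0.000333. Erbb2 went from 51.8 and 52.1 CPM in Tw2_GM to 268 and 252 in Tw2_48 (2.30 ± 0.14) and from 60.4 and 49.4 in Pax7_GM to 220.1 and 228 in Pax7_48 (2.02 ± 0.14). Between the lineages Erbb2 did not pass the test, at -0.07 ± 0.14 in GM and 0.21 ± 0.14 at 48. Its GM difference was called under the alternatives, in both directions. It was -0.93 (adjusted p = 0.000556) with size factors, -0.69 (adjusted p = 0.00342) with quantile normalization and 0.58 (adjusted p = 0.000776) after the trend removal.

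Met (chr6:17463800-17573980, plus strand) encodes the HGF receptor, through which satellite cells are known to be activated. Its level was 320.4 and 309.6 CPM in Tw2_GM, 88.9 and 124 in Pax7_GM, 11.6 and 9.26 in Tw2_48 and 13.6 and 12.6 in Pax7_48. In GM the 2 Tw2 libraries stood far above the Pax7 pair, and at 48 all 4 libraries were low. Mean CPM in GM was 2.96 times that of Pax7 in Tw2 (1.57 ± 0.18 (SE), adjusted p = 0.000177), whereas at 48 the difference of -0.31 ± 0.18 did not pass the test (adjusted p = 0.167). The change from GM to 48 was -4.80 ± 0.18 (SE), adjusted p = 7.7e-08 in Tw2 and -2.91 ± 0.18 (SE), adjusted p = 1.95e-06 in Pax7, and the difference of these changes was -1.88 ± 0.26 (SE), adjusted p = 0.00251. Hbegf, which encodes an EGF receptor ligand, went from 95.8 and 99.4 to 10.05 and 8.41 CPM in Tw2 (-3.27 ± 0.14 (SE), adjusted p = 1.16e-07) and from 95.9 and 86.6 to 14.1 and 13.4 CPM in Pax7 (-2.65 ± 0.14 (SE), adjusted p = 6.83e-07). The GM libraries of the lineages overlapped. At 48 Hbegf was lower in Tw2 (-0.53 ± 0.14 (SE), adjusted p = 0.0102), with -0.07 (adjusted p = 0.659) after the trend removal and an adjusted p of 0.0857 without the shallower Tw2_48 library.

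The IGF ligand and its receptor moved apart. Igf1 encodes a secreted growth factor that promotes both proliferation and differentiation of myoblasts. It was low in GM, with 2.3001 and 1.15 CPM in Tw2_GM and 1.63 and 0.965 in Pax7_GM, and reached 16.6 and 13.1 CPM in Tw2_48 and 10.3 and 10.6 in Pax7_48. It was higher at 48 by 2.56 ± 0.23 (SE), adjusted p = 1.25e-05 in Tw2 and 2.34 ± 0.23 (SE), adjusted p = 2.76e-05 in Pax7. Igf1 passed the filter of 10 CPM in 4 libraries only through the 48 libraries, so this rise was partly fixed in advance. The lineages overlapped in GM and not at 48, where the difference of 0.46 ± 0.23 did not pass the test (adjusted p = 0.115). Igf1r stood at 173 and 158 CPM in Tw2_GM, 102 and 123 in Pax7_GM, 101 and 87.5 in Tw2_48 and 72.8 and 77.5 in Pax7_48. The 48 libraries were the lower ones in each lineage, and Tw2_GM the highest group. Its lineage difference in GM was 0.56 ± 0.15 (SE), adjusted p = 0.00931, but -0.31 with size factors, and its adjusted p reached 0.0681 without the deeper Tw2_GM library.

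Igfbp7 (chr5:77349240-77408041, minus strand) encodes a secreted protein of the IGF-binding family with low affinity for IGFs. It stood at 124 and 144 CPM in Tw2_GM, 33.5 and 32.8 in Pax7_GM, 14.1 and 14.9 in Tw2_48 and 22.8 and 16.1 in Pax7_48. Only the 2 Tw2_GM libraries were above 100 CPM, and the order of the lineages at 48 was the opposite one, without overlap. In GM the mean CPM of Tw2 was 4.03 times that of Pax7 (1.98 ± 0.18 (SE), adjusted p = 7.14e-05), the largest lineage difference among the members on the log2(CPM + 1) scale. By the ratio of mean CPM that of Fgf21 was larger, at 4.68 times in favour of Pax7. At 48 the Igfbp7 difference was -0.38 ± 0.18 (adjusted p = 0.087), and 0.47 (adjusted p = 0.0931) after the trend removal. The culture change of -3.11 ± 0.18 in Tw2 against -0.76 ± 0.18 in Pax7 gave a difference of -2.36 ± 0.25 (SE), adjusted p = 0.000725. Igfbp2, which encodes an IGF-binding protein of high affinity, had 113 and 150.3 CPM in Tw2_GM, 150.0 and 117 in Pax7_GM, 80.2 and 88.97 in Tw2_48 and 59.8 and 45.96 in Pax7_48. The lineages overlapped in GM and were apart at 48 (0.68 ± 0.20 (SE), adjusted p = 0.0189), where the value was 0.03 (adjusted p = 0.91) with size factors. That call was lost without any 1 of 3 of the 8 libraries (adjusted p = 0.137 without the shallower Pax7_48 library). Igfbp2 was lower at 48 in both lineages, with an adjusted p of 0.145 in Tw2 without the shallower Tw2_GM library.

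Among the adaptors, the insulin receptor substrate genes Irs1 and Irs2 were lower at 48 in both lineages and the Gab genes were higher in both. Irs1, a docking protein gene of the insulin and IGF receptors, stood at 259 and 224 CPM in Tw2_GM, 81.7 and 126 in Pax7_GM, 84.2 and 75.98 in Tw2_48 and 39.1 and 31.3 in Pax7_48. Both Tw2 libraries exceeded both Pax7 libraries in each culture, by 1.24 ± 0.22 (SE), adjusted p = 0.00107 in GM and 1.17 ± 0.22 (SE), adjusted p = 0.00275 at 48. With size factors the GM value of Irs1 was 0.37 (adjusted p = 0.109). Its culture change was nearly the same in the lineages, at -1.58 ± 0.22 in Tw2 and -1.51 ± 0.22 in Pax7, with a difference of -0.07 ± 0.31.

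Gab1 and Gab2 encode docking proteins that link Met and other receptors to PI3 kinase and Shp2. Gab1 was at 9.28 and 8.85 CPM in Tw2_GM, 6.37 and 8.49 in Pax7_GM, 25.5 and 21.5 in Tw2_48 and 12.6 and 14.7 in Pax7_48. The Tw2 libraries were higher at 48 without overlap (0.74 ± 0.17 (SE), adjusted p = 0.00601), and the value was 0.12 with size factors and had an adjusted p of 0.0563 without the deeper Tw2_48 library. Gab2 stood at 33.02 and 30.99 CPM in Tw2_GM, 20.2 and 21.8 in Pax7_GM, 96.2 and 92.3 in Tw2_48 and 76.01 and 72.8 in Pax7_48. It was called higher in Tw2 in GM (0.59 ± 0.12 (SE), adjusted p = 0.00271) and at 48 (0.34 ± 0.12 (SE), adjusted p = 0.0403), but both values turned negative with size factors, to -0.25 and -0.32. The call at 48 was lost without any 1 of 6 of the 8 libraries (adjusted p = 0.18 without the deeper Tw2_48 library). Irs2 ranged from 19.5 to 30.1 CPM in GM and from 5.53 to 6.81 CPM at 48, and had no lineage call.

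Of the 6 Sprouty and Spred genes, 5 were lower at 48 in both lineages (39.4% of all genes were) and Spry1 was higher in both (33.2%). Spry1 (chr3:37639947-37644598, plus strand) encodes a Sprouty that is known for its part in returning satellite cells to quiescence. It stood at 12.6 and 9.38 CPM in Tw2_GM, 40.8 and 38.6 in Pax7_GM, 92.4 and 85.3 in Tw2_48 and 99.2 and 88.8 in Pax7_48. The 2 Tw2_GM libraries were the lowest of the 8, and at 48 the lineages overlapped. In GM the mean CPM of Pax7 was 3.62 times that of Tw2 (-1.78 ± 0.16 (SE), adjusted p = 7.33e-05), and at 48 the difference of -0.08 ± 0.16 did not pass the test (adjusted p = 0.679). The 48 value was -0.73 (adjusted p = 0.00326) with size factors and 0.52 (adjusted p = 0.0384) after the trend removal. Spry1 was higher at 48 by 2.92 ± 0.16 (SE), adjusted p = 5.5e-07 in Tw2 and 1.22 ± 0.16 (SE), adjusted p = 0.00014 in Pax7, and the change was larger in Tw2 by 1.70 ± 0.23 (SE), adjusted p = 0.00212. Without any 1 library the adjusted p of that difference was at most 0.0185. Spry2 and Spry4 went the opposite way in culture and did not pass the test between lineages. With size factors they were called lower in Tw2 in GM, at -0.75 (adjusted p = 0.000844) and -0.68 (adjusted p = 0.00292). Spry2 went from 155 and 164 to 35.3 and 38.4 CPM in Tw2 (-2.09 ± 0.12) and from 145 and 149 to 43.97 and 42.9 CPM in Pax7 (-1.73 ± 0.12). Spry4 went from 67.1 and 67.8 to 18.6 and 17.03 CPM in Tw2 (-1.86 ± 0.14) and from 64.8 and 54.4 to 17.01 and 15.1 CPM in Pax7 (-1.83 ± 0.14).

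The Spred genes encode Sprouty relatives that bring the Ras inhibitor neurofibromin to the membrane. Spred1 was at 179 and 164 CPM in Tw2_GM, 39.3 and 67.5 in Pax7_GM, 31.3 and 28.3 in Tw2_48 and 13.999 and 14.5 in Pax7_48. Tw2 was above Pax7 in each culture without overlap, while the Pax7_GM pair lay far apart. The lineage difference of Spred1 was 1.71 ± 0.23 (SE), adjusted p = 0.000284 in GM and 1.01 ± 0.23 (SE), adjusted p = 0.00609 at 48, the latter 0.39 (adjusted p = 0.131) with size factors and 0.11 (adjusted p = 0.382) after the trend removal. The GM value was 0.85 with size factors and 0.33 (adjusted p = 0.0184) after the trend removal. Spred2 stood at 134 and 132 CPM in Tw2_GM, 77.1 and 82.6 in Pax7_GM, 33.1 and 29.1 in Tw2_48 and 15.03 and 20.03 in Pax7_48. It was higher in Tw2 by 0.73 ± 0.16 (SE), adjusted p = 0.0035 in GM, which turned to -0.14 with size factors, and by 0.80 ± 0.16 (SE), adjusted p = 0.00372 at 48, where it was 0.17 (adjusted p = 0.374) with size factors and 0.38 (adjusted p = 0.0626) with quantile normalization. Spred3 was at 28.01 and 18.1 CPM in Tw2_GM and 33.5 and 32.03 in Pax7_GM, and between 9.79 and 10.1 CPM in the 48 libraries. Its GM difference (-0.52 ± 0.19 (SE), adjusted p = 0.0364) rested on a Tw2_GM pair that lay far apart, had an adjusted p of 0.283 without the shallower of them, and was 0.24 after the trend removal.

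Of the 7 MAP kinase phosphatase genes, 6 were lower at 48 in both lineages (39.4% of all genes were) and Dusp8, which acts mainly on the stress kinases JNK and p38, was higher in both (33.2%). Dusp6 (chr10:99263231-99267489, plus strand) encodes the cytoplasmic ERK phosphatase, a widely used readout of ERK activity. It stood at 116 and 103 CPM in Tw2_GM, 129 and 116 in Pax7_GM, 8.67 and 10.003 in Tw2_48 and 30.3 and 26.3 in Pax7_48. The lineages met in GM (-0.16 ± 0.15, adjusted p = 0.355), and at 48 both Tw2 libraries lay below both Pax7 libraries. Mean CPM of Pax7 at 48 was 3.03 times that of Tw2 (-1.50 ± 0.15 (SE), adjusted p = 0.000249), the largest lineage difference among the members in that culture. The change from GM to 48 was -3.42 ± 0.15 (SE), adjusted p = 1.26e-07 in Tw2 and -2.08 ± 0.15 (SE), adjusted p = 3.35e-06 in Pax7, with a difference of -1.35 ± 0.21 (SE), adjusted p = 0.00387.

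Dusp5 (chr19:53529109-53542431, plus strand) encodes a nuclear phosphatase specific for ERK. Its level was 66.05 and 65.95 CPM in Tw2_GM, 59.5 and 52.3 in Pax7_GM, 2.69 and 1.49 in Tw2_48 and 4.51 and 4.19 in Pax7_48. Tw2 was the lower lineage at 48 without overlap (-0.82 ± 0.19 (SE), adjusted p = 0.00673), with -0.18 (adjusted p = 0.461) after the trend removal, and the GM difference of 0.24 ± 0.19 did not pass the test. Dusp4, whose nuclear product acts on ERK and other MAP kinases, stood at 266 and 267 CPM in Tw2_GM, 146 and 128 in Pax7_GM, 12.6 and 10.4 in Tw2_48 and 9.49 and 11.8 in Pax7_48. It was the reverse case, higher in Tw2 in GM (0.96 ± 0.16 (SE), adjusted p = 0.000734; 0.10, adjusted p = 0.603 with size factors) and overlapping at 48. Both genes fell at 48. The culture change of Dusp4 was -4.42 ± 0.16 in Tw2 and -3.57 ± 0.16 in Pax7, and that of Dusp5 was -4.47 ± 0.19 and -3.41 ± 0.19. The difference of the changes was -0.86 ± 0.22 (SE), adjusted p = 0.032 for Dusp4 and -1.06 ± 0.27 (SE), adjusted p = 0.0302 for Dusp5. Neither difference passed the test with size factors (adjusted p = 0.122 and 0.101).

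Dusp8 had 4.6002 and 5.4003 CPM in Tw2_GM, 11.2 and 9.07 in Pax7_GM, 24.5 and 22.2 in Tw2_48 and 29.6 and 26.4 in Pax7_48. It was lower in Tw2 in GM without overlap (-0.89 ± 0.15 (SE), adjusted p = 0.000941; -0.24, adjusted p = 0.119 after the trend removal). Dusp9, an ERK phosphatase gene, was at 0.801 and 1.17 CPM in Tw2_48 and 2.35 and 1.702 in Pax7_48, below the 14.5 to 19.4 CPM of the 4 GM libraries. Its call at 48 (-0.61 ± 0.18 (SE), adjusted p = 0.019) was lost without the deeper Tw2_48 library (adjusted p = 0.134) and the value was near 0 after the trend removal. Dusp2, another nuclear MKP gene, was called higher in Tw2 in GM (0.39 ± 0.15 (SE), adjusted p = 0.0417) at 21.03 to 32.9 CPM, but -0.45 with size factors, and the call was lost without any 1 of 7 of the 8 libraries (adjusted p = 0.24 without the shallower Tw2_GM library). Dusp7, a cytoplasmic ERK phosphatase gene like Dusp6, was between 29.3 and 37.1 CPM in GM and between 13.5 and 17.6 CPM at 48, and had no lineage call.

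The promoters of 3 feedback inhibitor genes that carry these contrasts are shown for comparison: Dusp6 and Dusp5, which fell in culture, and Spry1, which did not. Each is the 250 bases before the RefSeq start on the plus strand of GRCm38.p6, at chr10:99262981-99263230 (Dusp6), chr19:53528895-53529144 (Dusp5, where the GENCODE gene starts inside the window) and chr3:37639697-37639946 (Spry1). Capitals mark matches, on either strand, to the ETS core CGGAAG, to E-boxes (CANNTG) and to the CArG box, the site of serum response factor. The searches also covered AP-1 (TGANTCA), the cAMP response element (TGACGTCA) and the amino acid response element, and no match overlapped another in these windows.
Dusp6: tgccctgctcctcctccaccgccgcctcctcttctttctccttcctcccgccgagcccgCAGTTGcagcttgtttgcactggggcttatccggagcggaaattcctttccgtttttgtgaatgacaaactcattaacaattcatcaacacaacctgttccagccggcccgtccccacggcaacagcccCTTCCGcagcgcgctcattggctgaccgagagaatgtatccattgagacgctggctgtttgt
Dusp5: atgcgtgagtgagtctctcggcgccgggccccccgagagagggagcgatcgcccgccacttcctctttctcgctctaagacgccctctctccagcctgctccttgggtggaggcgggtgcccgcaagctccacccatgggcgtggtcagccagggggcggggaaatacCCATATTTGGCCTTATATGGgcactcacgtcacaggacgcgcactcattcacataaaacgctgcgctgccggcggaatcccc
Spry1: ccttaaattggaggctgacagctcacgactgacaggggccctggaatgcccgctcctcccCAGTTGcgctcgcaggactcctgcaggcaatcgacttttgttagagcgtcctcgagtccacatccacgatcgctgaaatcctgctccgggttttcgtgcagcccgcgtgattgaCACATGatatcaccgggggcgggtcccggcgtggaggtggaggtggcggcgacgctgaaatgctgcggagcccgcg
The Dusp6 window held an ETS core on the opposite strand at -62 to -57 and an E-box at -191 to -186. The Dusp5 window held 2 adjoining CArG boxes at -82 to -73 and -72 to -63, and Spry1 held 2 E-boxes at -190 to -185 and -76 to -71. The ETS core occurred in 13.6% of all 32851 windows, AP-1 in 6.75%, the cAMP response element in 1.55% and the CArG box in 1.47%. Windows were at hand for 32 of the 41 members (43 windows, several genes having more than 1), of which 11.6% held the ETS core, 11.6% AP-1, 2.33% the cAMP response element, 60.5% an E-box and 4.65% a CArG box. Members with no window were Fgfr1, Pdgfb, Hbegf, Erbb3, Gab2, Spry4, Dusp4, Dusp9 and Fgfr1op. These letters say nothing about which factors were present.

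All 4 atypical Dusp genes, whose products lack the MAP kinase docking domain of the MKPs, were higher at 48 in both lineages (33.2% of all genes were). Dusp3 encodes a small phosphatase that acts on ERK and JNK among other targets, Dusp13 muscle and testis phosphatases, and Dusp27 an inactive, muscle-enriched phosphatase relative. Dusp3 stood at 75.7 and 73.4 CPM in Tw2_GM, 120.2 and 111 in Pax7_GM, 371 and 367 in Tw2_48 and 547 and 552 in Pax7_48. The Tw2 libraries were lower in each culture without overlap, by -0.63 ± 0.12 (SE), adjusted p = 0.00166 in GM and -0.57 ± 0.12 (SE), adjusted p = 0.00437 at 48. Dusp13 was at 6.9003 and 5.93 CPM in Tw2_GM, 13.8 and 12.2 in Pax7_GM, 43.03 and 37.7 in Tw2_48 and 58.7 and 60.9 in Pax7_48. Its lineage differences of -0.92 ± 0.14 (SE), adjusted p = 0.000548 in GM and -0.56 ± 0.14 (SE), adjusted p = 0.00935 at 48 were 0.24 and 0.19 after the trend removal, and the latter had an adjusted p of 0.0739 without the shallower Tw2_48 library. Dusp28 had 3.78 and 3.895 CPM in Tw2_GM, 12.2 and 8.87 in Pax7_GM, 40.6 and 42.1 in Tw2_48 and 52.99 and 57.7 in Pax7_48. It was lower in Tw2 in GM (-1.24 ± 0.16 (SE), adjusted p = 0.000246), which became 0.02 after the trend removal. Its culture change was larger in Tw2 by 0.83 ± 0.23 (SE), adjusted p = 0.0387.

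Dusp27 differed strongly between cultures and little between lineages. It stood at 48.1 and 47.8 CPM in Tw2_GM, 50.7 and 51.5 in Pax7_GM, 356 and 349 in Tw2_48 and 394 and 397 in Pax7_48. The change from GM to 48 was 2.85 ± 0.12 (SE), adjusted p = 1.03e-07 in Tw2 and 2.93 ± 0.12 (SE), adjusted p = 2.49e-07 in Pax7. The lineage differences of -0.09 ± 0.12 in GM and -0.16 ± 0.12 at 48 did not pass the test, although the libraries did not overlap. The GM difference was called with the opposite sign after the trend removal. Fgfr1op, the centrosomal gene matched by name, was at 31.5 and 25.1 CPM in Tw2_GM, 4.88 and 9.45 in Pax7_GM, 32.9 and 26.8 in Tw2_48 and 16.9 and 16.5 in Pax7_48. The 2 Pax7_GM libraries were the lowest of the 8. Fgfr1op was in the table through the GM lineage difference alone. Its deposited log2 value against Tw2_GM was -1.85 in Pax7_GM, -0.73 in Pax7_48 and 0.07 in Tw2_48. A large lineage difference in GM was thus fixed by the selection, and its test is no separate support. The lineage difference in GM was 1.90 ± 0.26 (SE), adjusted p = 0.00032. At 48 it was 0.79 ± 0.26 (SE), adjusted p = 0.0269, lost without any 1 of 4 of the 8 libraries (adjusted p = 0.149 without the deeper Tw2_48 library) and not called with size factors (0.17, adjusted p = 0.558).

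The culture changes of the lineages share no library, but they did not enter the table on equal terms. Genes had been selected by their fold change from Tw2_GM, so the Tw2 change was itself a ground of selection and the Pax7 change was not. The lineage difference in GM was a ground of selection as well, and that at 48 was not. What this selection adds to the differences below was not tested. Of the 11 members whose changes differed, Erbb3 (2.01), Spry1 (1.70), Fgfr3 (1.16), Fgf21 (0.85) and Dusp28 (0.83) were more strongly induced at 48 in Tw2. Igfbp7 (-2.36), Met (-1.88), Dusp6 (-1.35), Dusp5 (-1.06) and Dusp4 (-0.86) fell further in Tw2, and Fgf11 (-0.70) was less induced there. The difference was called under both scalings and after the trend removal, and without any 1 library, for Erbb3, Spry1, Met, Igfbp7 and Dusp6. The smallest of these values under the scalings and the trend removal was that of Dusp6 with quantile normalization, -1.10. Fgfr3 was called without any 1 library but not with quantile normalization. The calls of Fgf11, Fgf21, Dusp4 and Dusp28 were each lost without any 1 of 6 of the 8 libraries and that of Dusp5 without any 1 of 5, with adjusted p of up to 0.154 (Fgf21, without the deeper Tw2_48 library). The lineage that was higher in GM was the lower one at 48, without overlap, for Erbb3, Fgfr3, Met, Igfbp7 and Dusp5 among the 11, though the 48 difference of Met and Igfbp7 and the GM difference of Dusp5 did not pass the test. The opposite order did not hold under each setting: the lineage differences took the same sign in both cultures for Fgfr3 with size factors and after the trend removal, for Igfbp7 after the trend removal and for Dusp5 with size factors and quantile normalization.

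**Figure D3:**
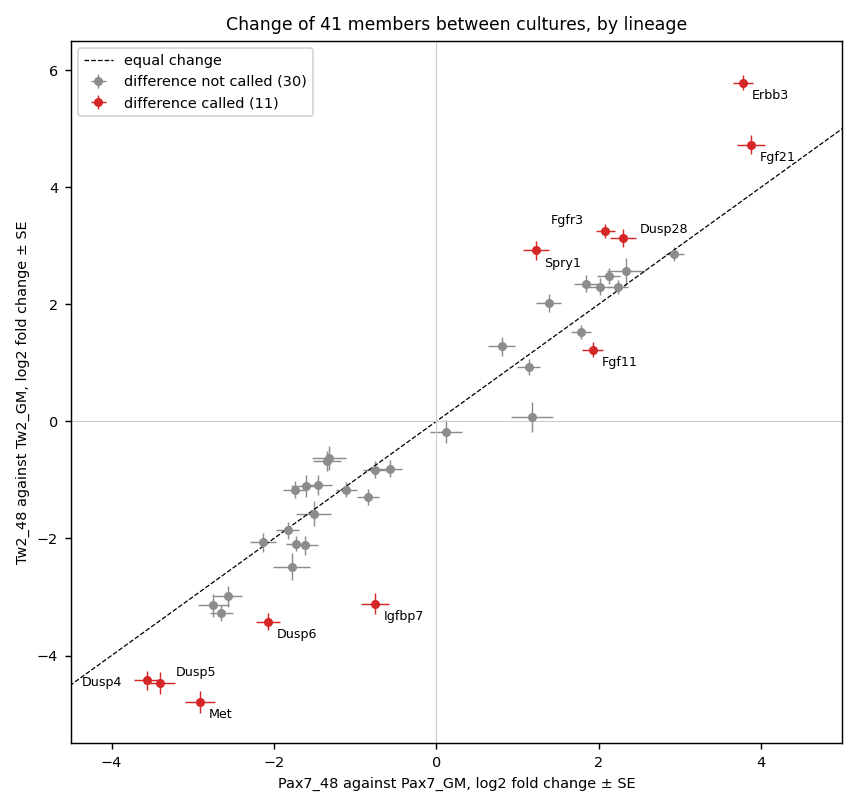
Change of each of the 41 genes from GM to 48 in the Pax7 lineage (x axis) against that in the Tw2 lineage (y axis), as log2 fold changes with bars of 1 SE; the dashed line marks equal changes, and red points are the 11 genes whose changes differed. Erbb3 lies above the line at 3.78 and 5.78, and Met and Igfbp7 below it.

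**Figure D4:**
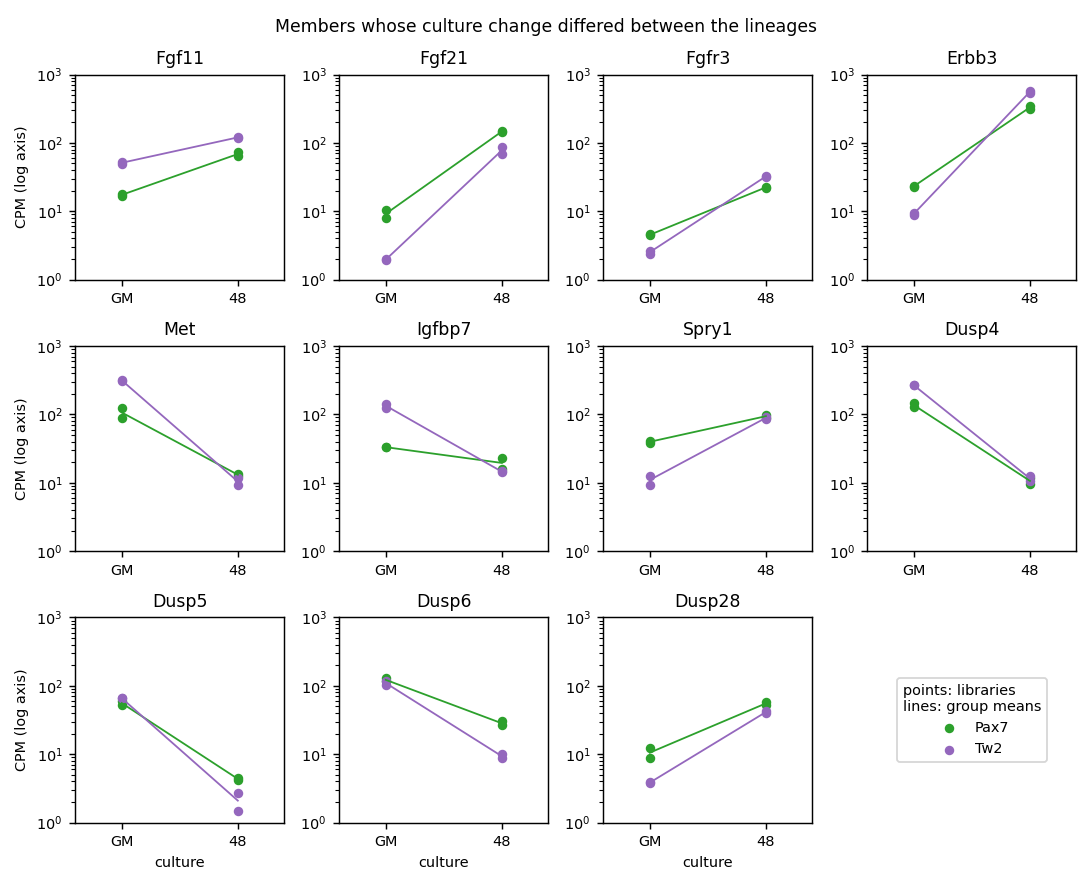
CPM (log axis) of the 11 genes whose culture change differed between the lineages, in GM and at 48; points are libraries, 2 per group, and lines join group means of Pax7 (green) and Tw2 (purple). The lines cross for Fgfr3, Erbb3, Met, Igfbp7 and Dusp5, and for Spry1 the lineages are apart in GM and together at 48 in these CPM values, though not with size factors or after the trend removal.

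Over the 8 libraries, the members whose log2(CPM + 1) values followed Spry1 most closely were Dusp8, Dusp28 and Fgf21 (Pearson r 0.97, 0.96 and 0.96), and the one most opposed to it was Igfbp7 (-0.98). Those closest to Igfbp7 were Met, Spred1 and Igf1r (0.93, 0.90 and 0.88). The points share 4 groups of 2 libraries, so the values describe a pattern over groups.

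Genes of the same pathways outside the 41 were counted from 7 lists. The shares of all genes to set beside the counts at 48 against GM are 38.7% higher and 40.5% lower in Pax7, and 35.3% and 48.9% in Tw2. The ERK-responsive transcription factor genes, 18 of 24 tested, had 14 lower and 2 higher at 48 in Pax7, and 15 lower and 2 higher in Tw2, with medians of -1.56 and -1.89. Fosl1, an AP-1 subunit gene, went from 175 and 195 to 1.602 and 2.13 CPM in Tw2 (-6.03 ± 0.18 (SE), adjusted p = 2.68e-08) and from 188 and 163 to 7.61 and 5.499 CPM in Pax7 (-4.55 ± 0.18 (SE), adjusted p = 2.46e-07). Etv4, an ETS factor gene downstream of FGF receptors, changed by -5.43 ± 0.19 in Tw2 and -4.32 ± 0.19 in Pax7, and Myc by -3.83 ± 0.15 and -3.40 ± 0.15. At 48, 9 of the 18 were lower in Tw2 and 2 higher, where 22.1% and 43.3% of all genes were. The largest differences were those of Egr3 (-1.40 ± 0.15) and Fosl1 (-1.39 ± 0.18), and the median was -0.44 beside 0.27 over all genes.

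Of 9 other ligand genes tested (35 listed), 8 were lower and 1 higher at 48 in Pax7, and 7 lower and 1 higher in Tw2. The macrophage growth factor gene Csf1 went from 833 and 858 to 27.3 and 29.4 CPM in Tw2 and from 839 and 779.8 to 80.1 and 67.95 in Pax7, and its change differed between the lineages by -1.42 ± 0.19 (SE), adjusted p = 0.00233. Gas6, the ligand gene of Axl, was lower in Tw2 in both cultures (-2.89 ± 0.21 in GM and -2.28 ± 0.21 at 48). Of 9 other receptor genes tested (37 listed), 6 were lower and 3 higher at 48 in each lineage, with Epha2 changed by -4.59 ± 0.13 in Tw2 and -3.62 ± 0.13 in Pax7. Of 20 other negative regulator genes tested (34 listed), 10 were lower and 5 higher at 48 in Pax7, and 14 and 3 in Tw2. Errfi1, whose product inhibits ErbB kinases, went from 692 and 694 to 26.8 and 24.5 CPM in Tw2 and from 559 and 571 to 44.8 and 43.1 in Pax7. Of 18 heparan sulphate and co-receptor genes tested (36 listed), 13 were lower and 4 higher at 48 in Pax7, and 14 and 4 in Tw2. Flrt2, a membrane protein gene of the FLRT family, had 301 and 302 CPM in the Tw2_GM libraries and 15.6 and 25.5 in those of Pax7_GM (3.85 ± 0.21 (SE), adjusted p = 8.3e-06).

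Among the relays downstream of the receptors, more genes were higher at 48 than lower in Pax7, where 38.7% of all genes were called higher and 40.5% lower. Of 19 Ras-MAPK relay genes tested (35 listed), 8 were higher and 3 lower in Pax7, and 7 higher and 8 lower in Tw2, with Araf higher in both (1.32 ± 0.13 and 1.77 ± 0.13). Of 16 PI3K-Akt relay genes tested (29 listed), 8 were higher and 2 lower in Pax7, and 8 higher and 6 lower in Tw2. Akt2, an Akt kinase gene important for insulin signalling, was higher at 48 by 2.24 ± 0.16 in Pax7 and 2.20 ± 0.16 in Tw2. Between the lineages in GM, 10 relay genes of each list were higher in Tw2 and 3 and 4 were lower, beside 48.7% and 26.0% of all genes. Their medians were 0.96 (Ras-MAPK) and 1.27 (PI3K-Akt) beside 0.34 over all genes, which became -0.50 with size factors. How the relay counts depend on the scaling or on GC content is not given here. Rictor, which encodes a subunit of mTOR complex 2, differed by 2.49 ± 0.25 (SE), adjusted p = 0.000103 in GM.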

How the data were processed

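Strand handling and the counting tool are not given in the sources used here, so reads of overlapping genes could not be told apart. TopHat2 2.0.0, DESeq2 1.6.3 and the mouse build GRCm38 (mm10) appear, without roles, in the submitters' processing notes. The authors deposited the mean CPM of each group and log2 fold changes of each group against Tw2_GM, which equal log2 of the ratio of (mean CPM + 1) to within 1.41e-11, and a status score that is 1 for every gene. Each listed gene has an absolute deposited log2 value of at least 1, and each tested gene reached 10 CPM in at least 4 of the 8 libraries.

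A mean of 2 CPM values is a sum of whole multiples of 2 steps, 1 per library. The steps were found from low values, and each mean, deposited with 12 significant digits, was taken apart into whole reads for 5451 of 5457 genes. The 6 genes without a single solution hold none of the members. The columns carry no replicate numbers.

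limma 3.58.1 (R 4.3.3) was fitted to log2(CPM + 1) of the 8 libraries with 1 mean per group, eBayes without trend (4 residual and 4.02 prior degrees of freedom) and Benjamini-Hochberg adjustment over the 5451 genes of a comparison. The median SE was 0.16 for a comparison of 2 groups and 0.23 for a difference of changes. The pseudocount of 1 makes the changes of genes near 1 CPM smaller. The solver and the fit were tested on simulated data. In each group the solver found a single solution for 5446 to 5451 of 5451 simulated means, all with the right reads. The calls of the fit on simulated data are not given here. Alternatives were other pseudocounts, a filter on low values, size factors, quantile normalization, a variance trend, removal of the trend with GC content and transcript length, leaving out each library and, chosen after seeing the data, library weights.

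Members, lists and tests were chosen with earlier results of these data known. Library values were given for members called between lineages or in the difference of changes, up to 4 per role by size, for members of roles with fewer than 2 called, and for a few others that the text compares them with. Up to 3 called genes were named from each pathway list. Pax7 was read as a check of the labels but left the lineage labels unchecked. Its level did not pass the test between lineages in GM and was higher in Tw2 in the other culture. Twist2 was not analysed. The cell type lists were satellite cell, fibro-adipogenic, endothelial, pericyte, immune and glial markers. Gene coordinates came from the GENCODE annotation and promoter windows from RefSeq.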

Additional observations from a re-analysis of the deposited data

Results flagged for a closer look

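The change from GM to 48 differed between the Tw2 and Pax7 lineages, by limma's test of the difference itself, for 11 of the 41 genes. Larger in Tw2 (log2, Tw2 minus Pax7) were the changes of Erbb3 (2.01), Spry1 (1.70), Fgfr3 (1.16), Fgf21 (0.85) and Dusp28 (0.83). Lower in Tw2 were those of Igfbp7 (-2.36), Met (-1.88), Dusp6 (-1.35), Dusp5 (-1.06), Dusp4 (-0.86) and Fgf11 (-0.70). Called when any 1 of the 8 libraries was left out were Erbb3, Spry1, Fgfr3, Igfbp7, Met and Dusp6. Without 1 library the adjusted p reached 0.154 for Fgf21, 0.145 for Dusp28, 0.144 for Dusp4, 0.137 for Fgf11 and 0.116 for Dusp5.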

How the results depend on the processing

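The 5 comparisons of all 41 members gave 205 results, recomputed under 16 alternatives, of which the filter on low values gave 195. No paired analysis was possible because the deposited columns carry no replicate numbers. The culture counts stayed within 1.5 times their values under every alternative. Leaving out 1 library gave 11 to 15 members higher and 9 to 13 lower in GM between lineages, 7 to 15 and 6 to 12 at 48, 17 and 23 throughout for the Pax7 culture change, 16 throughout and 22 to 23 for Tw2, and 3 to 11 and 3 to 10 for the difference of changes. The lone library left in a group was taken to vary like the other groups. With size factors the lineage counts (higher, lower) were 5 and 28 in GM (25.6% and 53.9% of all genes) and 2 and 26 at 48 (17.4% and 48.3%). Of the differences of changes 3 were then negative (4.09%). With quantile normalization the lineage counts were 8 and 22 in GM (36.2% and 40.5%) and 6 and 16 at 48 (29.5% and 31.5%). With the trend with GC content and length removed, 26 members were higher and 6 lower in GM (63.0% and 14.8%), and 4 were lower at 48 (13.2%). The differences of changes were then 3 positive and 11 negative (11.1% and 21.3%). Library weights gave 14 lower at 48 (28.5%), and a pseudocount of 4 gave 3 positive differences (9.83%). A lineage difference that was called as reported or under the alternative changed sign in these cases. After the trend removal these were in GM Fgfr1 (0.57), Fgfr3 (0.091), Pdgfa (0.53), Vegfb (1.06), Erbb2 (0.58), Igf1 (-1.53), Igfbp2 (1.098), Spred3 (0.24), Dusp9 (0.78), Dusp13 (0.24), Dusp27 (0.64) and Dusp28 (0.016), and at 48 Vegfb (0.52), Spry1 (0.52), Dusp9 (0.0013), Dusp13 (0.19) and Dusp28 (0.42). With size factors they were in GM Pdgfc (-0.50), Vegfa (-0.13), Vegfc (-0.25), Hbegf (-0.77), Igf1r (-0.31), Irs2 (-0.52), Gab1 (-0.50), Gab2 (-0.25), Spry2 (-0.75), Spry4 (-0.68), Spred2 (-0.14), Dusp2 (-0.45), Dusp5 (-0.62) and Dusp7 (-0.70), and at 48 Fgf13 (-0.63), Fgfr3 (-0.12), Pdgfa (-0.43), Erbb2 (-0.44), Gab2 (-0.32), Spry4 (-0.48) and Dusp4 (-0.50). With quantile normalization they were, in GM, Hbegf (-0.48), Spry2 (-0.43), Spry4 (-0.43), Dusp2 (-0.17) and Dusp7 (-0.45). Sign changes of values called under neither were not counted. The cause of these changes was not tested.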
